A study of Mus musculus with 6 samples.

Results

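The genes described here are 46 genes of the centromere, the kinetochore and the spindle checkpoint, out of 22579 genes counted in spermatogonia of Ddx20 knockout mice and their controls. Ddx20 encodes an RNA helicase. They were picked as a list of symbols, matched to the Ensembl identifiers of the count table. The list uses no measured value, but it was drawn up with earlier results of these data known. All 46 passed the filter on low counts, and they were tested with 14766 genes in all. By role, 16 belong to the inner centromere, 10 to the outer kinetochore, 3 to the SKA complex, 2 to the fibrous corona, 6 to the checkpoint, 3 to the RZZ complex, 4 to the chromosomal passenger complex and 2 are shugoshins.

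The samples were mouse germ cells isolated by the surface protein THY1 at day 4, sequenced as cDNA made by SMART-seq2 from about 1000 cells per library. There were 3 libraries labelled Ddx20 knockout, also written cKO, and 3 control libraries from littermates. The labels name neither the allele, nor a Cre driver, nor the cells in which Ddx20 was removed, and they do not say whether a library pools animals. Nothing states that the libraries of a group came from separate animals, so p-values measure the spread between these libraries, which may be technical.

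The kinetochore is the protein structure that couples a chromosome to spindle microtubules. Its inner layer sits on nucleosomes that carry the histone variant CENP-A, its outer layer binds the microtubule, and the spindle checkpoint delays anaphase until every kinetochore is attached. Many of its genes are transcribed in a cell cycle dependent way, with most RNA in the later part of the cycle, and spermatogonia are the mitotically dividing germ cells of the testis.

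Depth was 11656130 to 12497967 counted reads in the knockout libraries and 8428871 to 11893287 in the control libraries. Control 1 had the fewest reads, 8428871, and the fewest genes with a read, 16822, against 17557 to 19447 in the other libraries. Knockout libraries 1 and 2 formed by far the closest pair, with a mean chi-square per gene of 1.78, where sampling noise alone gives about 1 and the other pairs lay between 11.96 and 104. Mitochondrially encoded genes took 19.8% to 20.1% of reads in knockout libraries and 14.01% to 16.9% in control libraries. Ddx20 itself had 11.9, 15.2 and 10.7 CPM in the knockout libraries, against 63.8, 36.4 and 40.7 CPM in the controls, where CPM is a gene's count scaled to library size after TMM normalization. Ddx20 was lower in every knockout library than in any control, with a log2 fold change of -1.89 ± 0.26 (SE, n = 3 each; adjusted p = 0.0118, edgeR's quasi-likelihood test). Of 54 marker genes of 7 other testis and blood cell types, 50 were tested, 9 were higher in knockout and 0 were lower (edgeR), beside 2.03% of all genes higher, and none was at 0 in every library. Summed CPM was 340 to 457 in knockout and 142 to 175 in control for peritubular myoid markers, 1531 to 1676 in knockout and 729 to 1085 in control for fibroblast markers, and 1987 to 2838 in knockout and 752 to 1772 in control for macrophage markers. It was 64.1 to 81.2 in knockout and 40.8 to 47.7 in control for Sertoli markers, 70.6 to 74.2 in knockout and 51.3 to 55.6 in control for endothelial markers, 56.4 to 73.5 in knockout and 29.5 to 35.5 in control for T lymphocyte markers, and 48.7 to 68.1 in knockout and 35.7 to 68.5 in control for Leydig markers. Of the 8 macrophage markers 0 were called (edgeR), and Lyz2 alone had 1126 to 1765 CPM in knockout and 304 to 905 CPM in control. The median log2 fold change of the 50 tested was 0.56, but some were below 0, such as Sox9 (-0.68), Pdgfra (-0.26) and Nr5a1 (-0.93). The 7 germ cell markers summed to 5077 to 5570 CPM in knockout and 3650 to 4909 CPM in control, most of it Dazl, at 3003 to 3323 and 2501 to 3228 CPM. Their log2 fold changes ran from -0.57 (Tdrd1) to 0.83 (Tex101), with Dnd1 also below 0 (-0.46). Markers of undifferentiated spermatogonia summed to 593 to 627 CPM in knockout and 904 to 1024 CPM in control. Of these 13 markers 4 were lower and 0 higher (edgeR), beside 2.80% of all genes lower and 2.03% higher. Their median log2 fold change was -0.67. Thy1 RNA, from the gene of the sorting marker, was low, at 5.76 to 7.34 CPM in knockout and 5.60 to 13.7 CPM in control. The part of these differences in the results on kinetochore genes was not tested, and in bulk RNA fewer cells of a type and less RNA per cell cannot be told apart.

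Of the 46 genes, 7 were lower in knockout and 0 were higher at an adjusted p under 0.05 over all genes tested (edgeR), beside 2.80% of all genes lower and 2.03% higher. The 7 were Cenpf, Incenp, Cenpe, Bub1b, Ttk, Bub1 and Aurkb, which encode the large corona proteins, checkpoint kinases or kinase-like proteins, and the kinase and scaffold of the passenger complex. None of the 29 structural genes of the inner centromere, the outer kinetochore and the SKA complex passed that threshold by edgeR; 13 of the 29 were lower at an unadjusted p under 0.05. Among the 29, 5 were lower by DESeq2, and by limma-voom 15 were lower and 1 was higher. At an unadjusted p under 0.05, 23 of the 46 were lower and 0 higher, beside 12.8% of all genes lower. In 22 of the 46 every knockout library lay below every control library, beside 15.8% of all genes, and in none did every knockout library lie above, beside 16.8% of all genes. The median log2 fold change of the 46 was -0.46, against 0.01 for all genes tested. The count of 7 depended on the libraries used. By edgeR 0 of the 46 passed without knockout library 1, without knockout library 2 or without knockout library 3, in fits that called 0.00650%, 0.0195% and 0.00648% of all genes lower. At an unadjusted p under 0.05, 14 of the 46 were lower without knockout library 1 (beside 7.71% of all genes), 13 without knockout library 2 (beside 7.53%) and 20 without knockout library 3 (beside 12.1%). There were 1 (Cenpf, beside 0.450% of all genes lower) without control 2, 6 (beside 3.02%) without control 3 and 13 (beside 2.74%) without control 1. With knockout libraries 1 and 2 counted as 1 library, edgeR called 0, beside 0.00% of all genes lower. At an unadjusted p under 0.05, 13 were lower in that fit, beside 7.56% of all genes. In the same design DESeq2 called 4, beside 3.03% of the 8535 genes to which it gave an adjusted p. Limma-voom called 5, beside 1.62% of 15406 genes, so these 2 shares have unlike bases. With all 6 libraries, DESeq2 called 12 of the 46 lower, beside 5.74% of all genes, and limma-voom 23, beside 11.7%. With library size in place of TMM, edgeR called 19, beside 7.80%, and with the replicate number as a block 7, beside 2.51%.

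**Figure D1:**
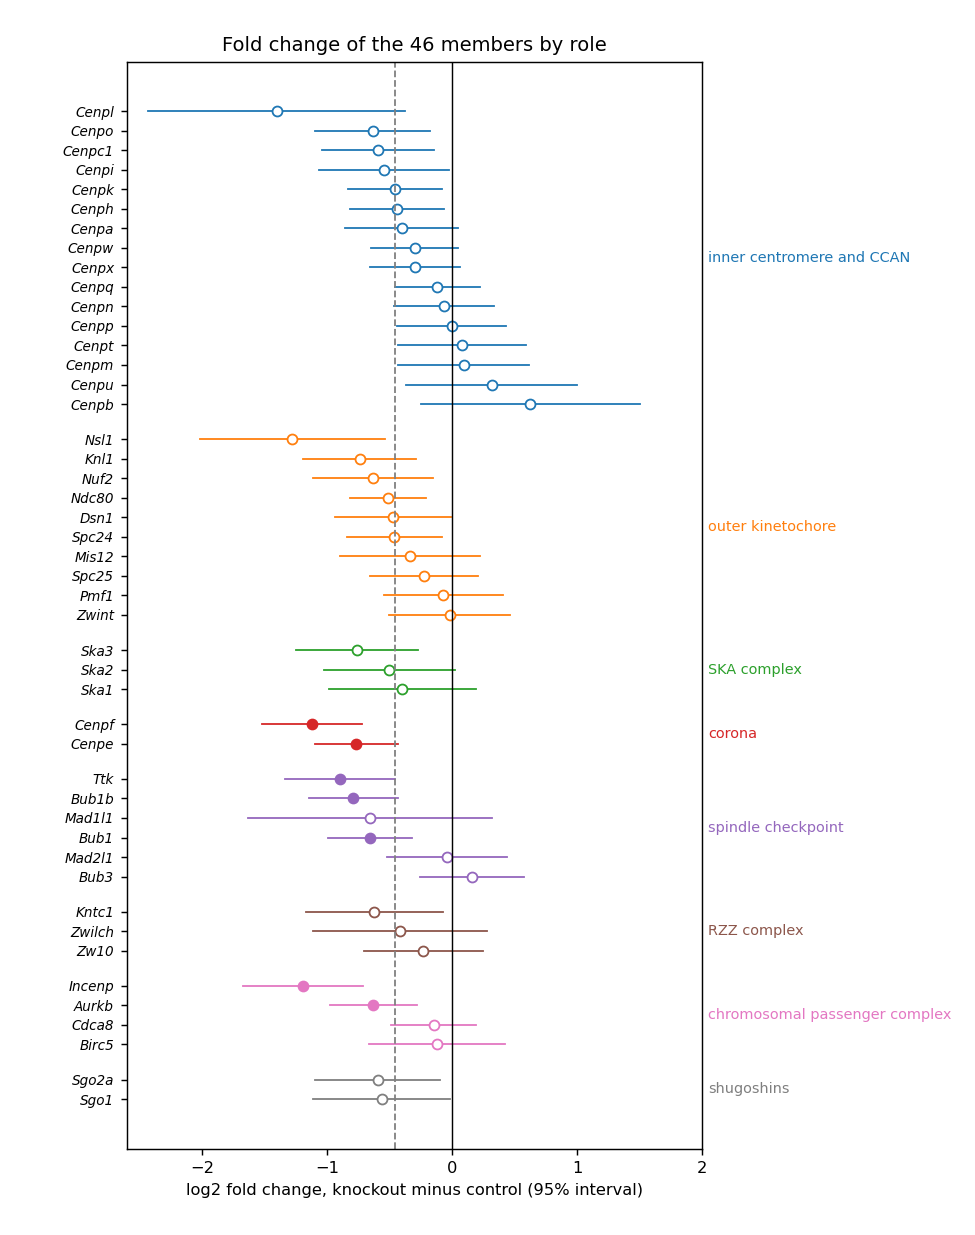
Log2 fold change, knockout over control, of each of the 46 genes, grouped by role, with 95% confidence intervals from edgeR (3 libraries per group); filled symbols mark the 7 genes at an adjusted p under 0.05, and the dashed line is the median of the 46, -0.46. In all, 41 of the 46 points lie below 0, and the 5 above it are Cenpb, Cenpu, Bub3, Cenpm and Cenpt.

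Both genes of the fibrous corona, the outermost layer that forms on unattached kinetochores, were lower in knockout. Cenpf, a very large coiled-coil protein that binds microtubules and also marks the nuclear envelope before mitosis (chr1:189640606-189688086, minus strand, GRCm38), had 182, 193 and 207 CPM in the knockout libraries, against 502, 419 and 342 CPM in the controls. The groups were far apart, with the highest knockout library well under the lowest control, and control 1 was the highest of all. Its log2 fold change was -1.12 ± 0.18 (SE; adjusted p = 0.0149, edgeR), which left 46.1% of the control mean. Cenpe, a plus-end directed kinesin that carries chromosomes to the spindle equator (chr3:135212537-135273611, plus strand, GRCm38), had 117, 114 and 131 CPM in the knockout libraries, against 224, 201 and 188 CPM in the controls. The groups did not overlap, and knockout library 3 was the nearest to the controls. The log2 fold change of Cenpe was -0.76 ± 0.15 (SE; adjusted p = 0.0244, edgeR).

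Of the 6 checkpoint genes, the 3 that encode kinases or a kinase-like protein were lower in knockout, and the other 3 did not pass the test. Bub1b, which encodes BUBR1, a subunit of the mitotic checkpoint complex that holds back the anaphase-promoting complex (chr2:118598211-118641591, plus strand, GRCm38), had 45.1, 54.2 and 41.0 CPM in the knockout libraries, against 80.1, 85.1 and 76.7 CPM in the controls. All knockout libraries were below all controls, and neither group held a library far from the others. Its log2 fold change was -0.79 ± 0.16 (SE; adjusted p = 0.0278, edgeR). Ttk, which encodes the kinase MPS1 that starts checkpoint signalling at unattached kinetochores (chr9:83834689-83872389, plus strand, GRCm38), had 29.5, 28.5 and 38.9 CPM in the knockout libraries, against 54.7, 52.8 and 72.6 CPM in the controls. Library 3 was the highest in both groups, and the groups did not overlap. The log2 fold change of Ttk was -0.90 ± 0.20 (SE; adjusted p = 0.0339, edgeR).

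Bub1 encodes the kinase that binds KNL1 and phosphorylates histone H2A at the centromere (chr2:127801122-127831865, minus strand, GRCm38). It had 87.3, 83.2 and 86.1 CPM in the knockout libraries, against 145, 144 and 114 CPM in the controls. Control 3 was the control nearest to the knockout libraries, which lay close together, and the groups did not overlap. The log2 fold change of Bub1 was -0.65 ± 0.15 (SE; adjusted p = 0.0395, edgeR).

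The checkpoint genes without a kinase domain encode adaptors that relay the signal. Mad2l1, which encodes the MAD2 protein that changes shape when it binds CDC20, had 271, 270 and 312 CPM in the knockout libraries, against 198, 320 and 360 CPM in the controls. Control 1 was the lowest of the 6 libraries, so the groups overlapped, and the log2 fold change was -0.04 (95% interval -0.52 to 0.44; adjusted p = 0.932, edgeR). Mad1l1, whose protein anchors MAD2 at the kinetochore, had 7.16, 5.35 and 8.73 CPM in the knockout libraries, against 18.7, 9.49 and 5.29 CPM in the controls. The controls spanned a wider range than the knockout libraries and overlapped them, on 59 to 97 reads in knockout and 69 to 196 in control, and the log2 fold change was -0.65 ± 0.44 (SE; adjusted p = 0.406, edgeR). Bub3, a WD-repeat partner of BUB1 and BUBR1, had a log2 fold change of 0.16 with a 95% interval of -0.25 to 0.57.

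The chromosomal passenger complex corrects faulty attachments through the kinase Aurora B, which INCENP activates and which Survivin and Borealin bring to the centromere. Incenp (chr19:9872296-9899551, minus strand, GRCm38) had 28.4, 31.7 and 41.4 CPM in the knockout libraries, against 95.9, 76.0 and 59.9 CPM in the controls. Control 1 was the highest and knockout library 1 the lowest, with no overlap. Its log2 fold change was -1.19 ± 0.22 (SE; adjusted p = 0.0205, edgeR), the most negative of the 7. Aurkb, which encodes Aurora B (chr11:69045647-69051664, plus strand, GRCm38), had 43.4, 45.2 and 52.9 CPM in the knockout libraries, against 68.7, 79.3 and 70.8 CPM in the controls. The groups did not overlap, and the log2 fold change was -0.63 ± 0.16 (SE; adjusted p = 0.0485, edgeR), the p nearest the threshold among the 7.

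The other subunits of the passenger complex did not pass the test. Birc5, which encodes Survivin, had 90.0, 99.9 and 123 CPM in the knockout libraries, against 68.9, 136 and 134 CPM in the controls. Control 1 was again the lowest library of all, and the log2 fold change was -0.12 (95% interval -0.66 to 0.43; adjusted p = 0.821, edgeR). Cdca8, which encodes Borealin, had 202, 202 and 237 CPM in the knockout libraries, against 241, 217 and 252 CPM in the controls. Knockout library 3 lay among the controls, and the log2 fold change was -0.15 (95% interval -0.48 to 0.19; adjusted p = 0.607, edgeR).

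**Figure D2:**
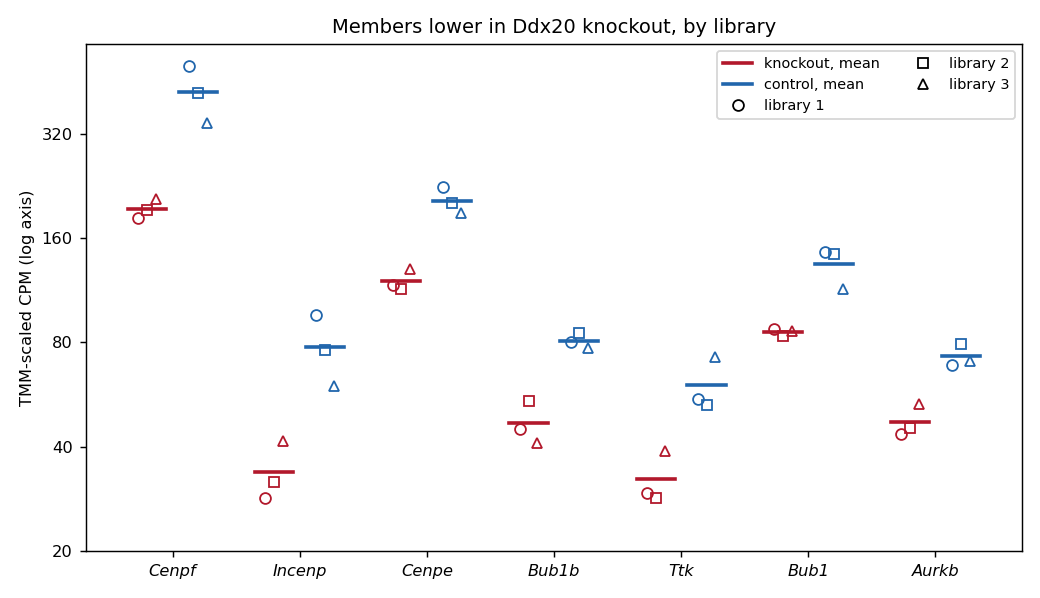
TMM-scaled CPM (vertical log axis) in each library of the 7 genes that were lower in knockout, knockout left of control for each gene, with the group mean as a line. In each of the 7, the 3 knockout libraries lie below the 3 control libraries, and the knockout mean relative to the control mean is lowest for Incenp (43.8%) and Cenpf (46.1%).

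The promoters of called and uncalled genes are shown for the letters of 3 elements known from cell cycle genes. These were the CHR (TTTGAA or TTCGAA), the CCAAT box (CCAAT) and E2F letters (TTTCCCGC, TTTCGCGC, TTTGCCGC or TTTGGCGC), searched on both strands in 300 bases, from 250 before to 50 after each RefSeq gene start on GRCm38.p6. The sequences are from RefSeq and run 5' to 3' on the strand of the gene, with capitals marking any of these letters. Cenpf (chr1:189688037-189688336, minus strand), Cenpe (chr3:135212313-135212612, plus strand), Bub1b (chr2:118597961-118598260, plus strand) and Ttk (chr9:83834439-83834738, plus strand) were lower in knockout.
Cenpf: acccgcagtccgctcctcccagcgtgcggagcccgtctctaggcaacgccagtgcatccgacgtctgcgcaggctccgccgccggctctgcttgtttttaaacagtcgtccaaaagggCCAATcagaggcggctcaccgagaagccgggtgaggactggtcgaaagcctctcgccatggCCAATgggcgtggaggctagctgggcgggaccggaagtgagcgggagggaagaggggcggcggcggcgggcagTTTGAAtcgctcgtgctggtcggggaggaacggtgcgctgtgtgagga
Cenpe: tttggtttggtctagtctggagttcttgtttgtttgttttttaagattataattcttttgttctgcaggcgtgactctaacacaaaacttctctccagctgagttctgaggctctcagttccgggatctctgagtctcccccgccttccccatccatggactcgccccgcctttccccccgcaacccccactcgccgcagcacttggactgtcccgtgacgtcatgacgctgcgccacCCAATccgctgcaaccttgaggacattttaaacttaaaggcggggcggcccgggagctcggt
Bub1b: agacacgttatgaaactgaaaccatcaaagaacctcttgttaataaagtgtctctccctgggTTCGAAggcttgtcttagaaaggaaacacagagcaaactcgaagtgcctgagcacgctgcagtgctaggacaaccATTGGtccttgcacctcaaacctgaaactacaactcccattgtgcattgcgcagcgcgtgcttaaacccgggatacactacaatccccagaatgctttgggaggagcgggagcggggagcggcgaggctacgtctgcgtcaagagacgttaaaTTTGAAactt
Ttk: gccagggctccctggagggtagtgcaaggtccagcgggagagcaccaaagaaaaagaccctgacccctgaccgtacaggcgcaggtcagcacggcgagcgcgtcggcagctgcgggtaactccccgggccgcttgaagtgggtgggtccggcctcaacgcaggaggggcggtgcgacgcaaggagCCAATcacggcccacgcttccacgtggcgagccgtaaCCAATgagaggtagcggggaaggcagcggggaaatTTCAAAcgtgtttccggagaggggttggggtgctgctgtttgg
Cenpp (chr13:49652682-49652981, minus strand) and Zwint (chr10:72654596-72654895, plus strand) had the log2 fold changes nearest 0.
Cenpp: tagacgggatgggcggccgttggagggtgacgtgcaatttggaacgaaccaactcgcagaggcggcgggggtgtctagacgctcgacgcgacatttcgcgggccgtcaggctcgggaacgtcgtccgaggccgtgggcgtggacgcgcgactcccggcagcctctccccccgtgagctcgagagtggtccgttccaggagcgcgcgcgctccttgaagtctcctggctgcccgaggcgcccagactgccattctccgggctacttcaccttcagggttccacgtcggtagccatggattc
Zwint: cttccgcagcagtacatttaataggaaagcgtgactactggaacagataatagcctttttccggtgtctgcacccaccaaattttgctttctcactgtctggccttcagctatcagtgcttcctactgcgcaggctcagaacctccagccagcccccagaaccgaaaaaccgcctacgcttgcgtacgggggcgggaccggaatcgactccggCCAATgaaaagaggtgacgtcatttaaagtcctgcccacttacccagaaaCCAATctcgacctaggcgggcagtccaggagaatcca

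In Cenpf the CHR letters began at base 3 of the transcript and the CCAAT letters at bases -71 and -132, counted from the start. In Ttk the CHR letters lay at bases 8 to 13 on the opposite strand, with CCAAT letters at -28 and -65. Bub1b held CHR letters at 41 to 46 and at -188 to -183 and CCAAT letters on the opposite strand at -113 to -109, while Cenpe held CCAAT letters alone, at -12 to -8. Zwint held CCAAT letters at -37 and at 14, and Cenpp held none of the letters searched. Windows were matched for 40 of the 46 genes, without Spc24, Zwilch, Ska1, Aurkb, Incenp and Nsl1. CHR letters were in 19 of the 40 (47.5%), against 19.4% of all 27025 promoter windows and 14.1% of the 11329 windows of genes tested. CCAAT letters were in 27 of the 40 (67.5%), against 37.9% of all windows and 38.9% of those of genes tested. E2F letters were in 4 (10%), against 2.32% of all windows and 4.01% of those of genes tested. Of the 5 called genes with a window, 4 held CHR letters and 5 held CCAAT letters, but among the 40 the median log2 fold change was -0.51 with CHR letters and -0.44 without. That median was -0.44 with CCAAT letters and -0.47 without, and -0.19 with E2F letters and -0.45 without. The match is to letters only and does not show a bound site.

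The inner centromere group holds CENP-A, the DNA-binding protein CENP-B, and the constitutive centromere-associated network that bridges CENP-A nucleosomes to the outer kinetochore. By edgeR 0 of its 16 genes passed the test in either direction, beside 2.80% of all genes lower and 2.03% higher. At an unadjusted p under 0.05, 6 were lower, beside 12.8% of all genes, and 0 higher. Limma-voom called 6 lower, beside 11.7% of all genes, and 1, Cenpb, higher, while DESeq2 called 1 lower, beside 5.74%. The median log2 fold change was -0.30, and 7 of the 16 had all knockout libraries below all controls, beside 15.8% of all genes. Cenpo, a subunit of the CENP-O group that helps to bring Polo-like kinase to the kinetochore, had 15.5, 14.1 and 15.3 CPM in the knockout libraries, against 22.9, 24.7 and 22.1 CPM in the controls. Each group was tight and there was no overlap, and the log2 fold change was -0.63 ± 0.21 (SE; adjusted p = 0.0997, edgeR). Exons of Adcy3 and Ptrhd1 on the other strand cover 19.0% and 3.47% of the exon bases of Cenpo, so reads cannot be told apart there without a strand setting. Over all libraries Adcy3 had 112 reads and Ptrhd1 2753. Cenpp, a member of the same CENP-O group, had 26.6, 23.6 and 22.9 CPM in the knockout libraries, against 22.8, 27.5 and 22.8 CPM in the controls. Both groups covered the same range, and the log2 fold change was 0.00 (95% interval -0.44 to 0.43; adjusted p = 0.998, edgeR). Ippk exons on the other strand cover 12.3% of those of Cenpp.

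Cenpa, the histone H3 variant that marks the centromere, had a log2 fold change of -0.40 (95% interval -0.86 to 0.05; adjusted p = 0.265, edgeR), on 237 ± 18.6 CPM in knockout and 313 ± 81.8 CPM in control (SD, n = 3 each). Control 1, at 221 CPM, lay within the knockout range of 221 to 257 CPM, so the spread of the controls was the wider one. Cenpl, the partner of CENP-N, had the most negative log2 fold change of the 46, -1.40 ± 0.47 (SE; adjusted p = 0.103, edgeR), on 5.48, 4.72 and 13.5 CPM in knockout and 13.9, 14.6 and 34.1 CPM in control. Library 3 was the highest in both groups, and controls 1 and 2 were only just above knockout library 3. Cenpb, which binds a motif in satellite repeats, had the highest log2 fold change, 0.63 (95% interval -0.25 to 1.51; adjusted p = 0.372, edgeR), on 11.4 ± 4.44 CPM in knockout and 7.35 ± 2.69 CPM in control (SD, n = 3 each). The remaining inner genes Cenpc1, Cenph, Cenpi, Cenpk, Cenpm, Cenpn, Cenpq, Cenpt, Cenpu, Cenpw and Cenpx had log2 fold changes between -0.59 (Cenpc1, the network's main link to CENP-A) and 0.32 (Cenpu). Cenpc1, Cenph, Cenpi, Cenpk and Cenpx were among those with no overlap between the groups. Primpol exons on the other strand cover 26.7% of the exon bases of Cenpu.

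The outer kinetochore binds microtubules through the NDC80 complex, which the MIS12 complex and KNL1 join to the inner layer. Of its 10 genes 0 passed the test by edgeR, beside 2.80% of all genes lower, while 6 were lower at an unadjusted p under 0.05, beside 12.8%. Limma-voom called 7 of the 10 lower, beside 11.7% of all genes, and DESeq2 3, beside 5.74%. All 10 log2 fold changes were below 0, with a median of -0.47. Nsl1, a MIS12 complex subunit, came nearest to the threshold, with 4.00, 5.35 and 6.57 CPM in the knockout libraries, against 16.8, 10.9 and 10.9 CPM in the controls. The highest knockout library was well below the lowest control, but reads were few, 43 to 73 in knockout and 115 to 176 in control. The log2 fold change was -1.27 ± 0.34 (SE; adjusted p = 0.0559, edgeR), and with no filter on low counts or a stricter one the adjusted p was 0.0462 or 0.0487. Zwint, which links KNL1 to the RZZ complex, had 241, 233 and 331 CPM in the knockout libraries, against 210, 256 and 349 CPM in the controls. Library 3 was the highest in both groups, which overlapped throughout, and the log2 fold change was -0.02 (95% interval -0.50 to 0.46; adjusted p = 0.973, edgeR).

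Ndc80, which encodes the HEC1 subunit that touches the microtubule, had 74.2 ± 4.37 CPM in knockout and 106 ± 2.95 CPM in control (SD, n = 3 each), with no overlap. Its log2 fold change was -0.51 ± 0.14 (SE; adjusted p = 0.0609, edgeR). Knl1, the scaffold on which BUB1 and BUBR1 assemble, had 27.0 ± 5.58 CPM in knockout and 45.1 ± 5.90 CPM in control (SD, n = 3 each), again with no overlap, and a log2 fold change of -0.74 ± 0.21 (SE; adjusted p = 0.0640, edgeR). The partners of NDC80 spanned a range, from -0.63 for Nuf2 through -0.46 for Spc24 to -0.22 for Spc25 on the log2 scale. Among the MIS12 complex genes, Dsn1 had a log2 fold change of -0.47, Mis12 of -0.34 and Pmf1 of -0.07. None of these 6 passed the test, and among them Spc24 alone had groups that did not overlap.

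The SKA complex, which keeps the NDC80 complex on shrinking microtubule ends, had 0 of 3 genes past the threshold by edgeR. There was 1 lower at an unadjusted p under 0.05 (beside 12.8% of all genes), 1 by DESeq2 (beside 5.74%) and 2 by limma-voom (beside 11.7%). Ska3 had 24.2, 20.7 and 28.8 CPM in the knockout libraries, against 40.4, 51.3 and 32.9 CPM in the controls. There was no overlap, with knockout library 3 and control 3 nearest to each other, and the log2 fold change was -0.76 ± 0.22 (SE; adjusted p = 0.0740, edgeR). Ska1 had 12.2, 11.0 and 19.1 CPM in the knockout libraries, against 18.2, 19.6 and 17.7 CPM in the controls. Knockout library 3 lay among the controls while knockout libraries 1 and 2 lay below them, and the log2 fold change was -0.40 (95% interval -0.98 to 0.19; adjusted p = 0.402, edgeR). Ska2 had a log2 fold change of -0.50 and no overlap, with 10.1% of its exon bases covered by an antisense transcript.

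The RZZ complex recruits the dynein adaptor and the MAD1 and MAD2 proteins to the corona. Of its 3 genes 0 passed the test by edgeR, DESeq2 or limma-voom, and 1 was lower at an unadjusted p under 0.05 in edgeR, beside 12.8% of all genes. Kntc1, which encodes ROD, had 10.04, 14.7 and 15.03 CPM in the knockout libraries, against 22.5, 20.5 and 18.1 CPM in the controls. The groups did not overlap, and the log2 fold change was -0.62 ± 0.25 (SE; adjusted p = 0.162, edgeR). Zw10 had 18.2, 18.5 and 20.8 CPM in the knockout libraries, against 21.5, 19.4 and 26.4 CPM in the controls. Knockout library 3 was above control 2, and the log2 fold change was -0.23 (95% interval -0.70 to 0.25; adjusted p = 0.563, edgeR). Zwilch had a log2 fold change of -0.42 ± 0.32 (SE), on 18.004 to 19.1 CPM in knockout and 13.2 to 35.8 CPM in control.

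Shugoshins protect centromeric cohesin until sister chromatids part. Neither gene passed the test by edgeR or DESeq2. Both were lower at an unadjusted p under 0.05 (beside 12.8% of all genes), and limma-voom called Sgo1 lower (beside 11.7%). Sgo2a, needed for centromeric cohesion in meiosis, had 15.7, 16.1 and 17.1 CPM in the knockout libraries, against 30.0, 24.3 and 19.7 CPM in the controls. The knockout libraries lay close together under all controls, and the log2 fold change was -0.59 ± 0.23 (SE; adjusted p = 0.144, edgeR). Kctd18 exons on the other strand cover 35.0% of the exon bases of Sgo2a. Sgo1, which acts in mitosis, had 20.3, 23.0 and 17.7 CPM in the knockout libraries, against 20.3, 35.8 and 33.8 CPM in the controls. Control 1 lay within the knockout range and the other controls above it, and the log2 fold change was -0.56 ± 0.25 (SE; adjusted p = 0.199, edgeR).

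Per kilobase of mRNA, the 46 genes spanned a wide range of levels, in which the 7 called genes lay in the middle. Spc25 had the highest level, 210.4 CPM per kilobase in knockout and 245.7 in control, followed in the controls by Cenpa at 162 in knockout and 213 in control and by Cdca8 at 169 in knockout and 187 in control. At the low end were Nsl1, with 1.09 CPM per kilobase in knockout and 2.64 in control, and Cenpb, with 2.33 in knockout and 1.50 in control. The 7 called genes lay between 11.2 (Ttk) and 25.0 (Bub1) CPM per kilobase in knockout and between 20.9 (Ttk) and 39.3 (Bub1) in control. None of the 7 has exons that overlap another annotated gene.

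Summed over the 46 genes, the level was 3231, 3239 and 3739 CPM in the knockout libraries, against 3903, 4646 and 4521 CPM in the controls. All knockout sums were below all control sums, and the knockout mean was 78.1% of the control mean. The 2 corona genes summed to 314 ± 20.3 CPM in knockout and 626 ± 98.0 CPM in control (SD, n = 3 each), and the 4 passenger complex genes to 399 ± 48.5 CPM in knockout and 500 ± 22.3 CPM in control (SD, n = 3 each). Neither of these sums overlapped between groups, whereas those of the inner centromere, the outer kinetochore and the checkpoint genes did on this TMM scale. As a share of all reads, with no TMM scaling, none of these overlapped. The inner centromere genes took 0.0750% to 0.0781% in knockout and 0.106% to 0.121% in control. The outer kinetochore genes took 0.0854% to 0.101% in knockout and 0.120% to 0.142% in control. The checkpoint genes took 0.0625% to 0.0689% in knockout and 0.0835% to 0.0958% in control. Without TMM, however, the tested genes as a whole shifted downward in knockout. Their median was -0.26 on the log2 scale with library size alone, against 0.01 with TMM (edgeR). The part of this shift in the separation of the 3 shares was not tested. The checkpoint sum was 678, 679 and 775 CPM in knockout, against 672, 874 and 873 CPM in control, since it is carried mostly by Mad2l1 and Bub3.

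**Figure D3:**
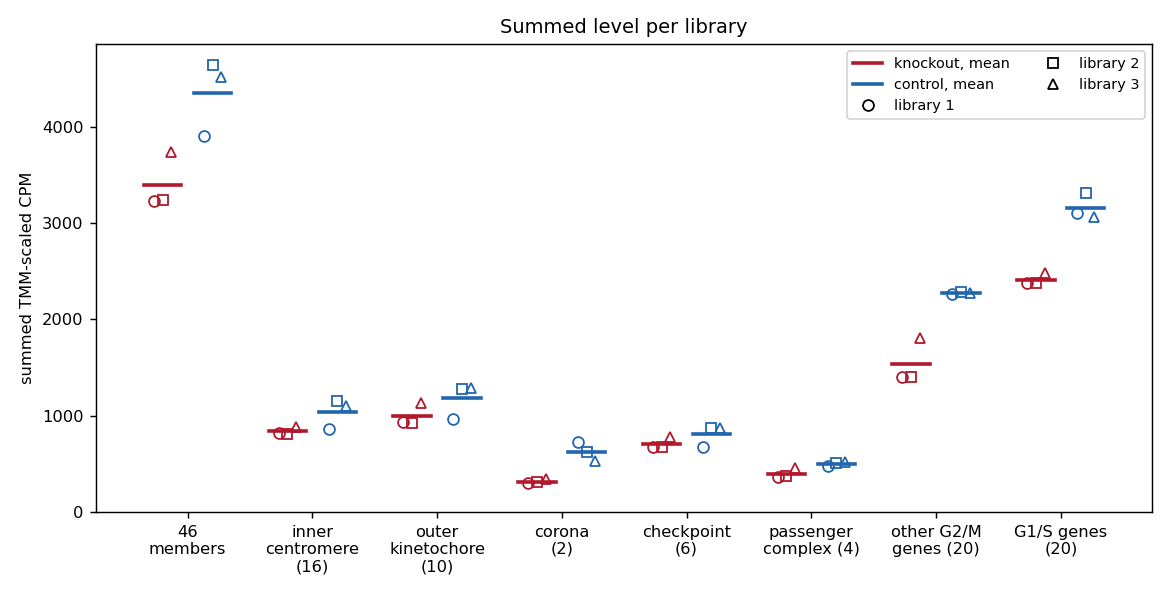
Summed TMM-scaled CPM per library (vertical axis, from 0) for all 46 genes, for 5 of their role groups and for lists of other G2/M genes and of G1/S genes, knockout left of control; points are libraries and lines are group means. Knockout library 3 is the highest of the knockout libraries in each of the 8 sums, and control 1 falls to or below the knockout range in the inner centromere, outer kinetochore and checkpoint sums.

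Coding length ran with these differences. The 46 genes were cut at their median coding length, 1035 bases, which is exactly the length of the called gene Aurkb and of Cenpl, both counted as longer. Of the 24 genes with coding sequences of at least 1035 bases, 7 were lower in knockout (29.2%), beside 4.01% of the 9108 coding genes of that length. Of the 22 shorter genes 0 were (edgeR), beside 0.920% of 4783, while 5 were lower at an unadjusted p under 0.05, 1 by DESeq2 and 8 by limma-voom. Among the 4783 these counts were 279, 102 and 316. The median log2 fold change was -0.62 in the longer genes, against -0.12 in all coding genes of that length, and -0.26 in the shorter genes, against 0.21 in all coding genes of that length. Cenpf and Cenpe, with 8991 and 7413 coding bases, are the longest of the 46. Next in length were Kntc1 and Knl1, with 6621 and 6357, which did not pass by edgeR. Knl1 passed by DESeq2 (adjusted p = 0.0249) and limma-voom (adjusted p = 0.00067). Over the 46 genes, Spearman's rho between coding length and log2 fold change was -0.53 (Pearson's r with log2 length -0.40), and over 13891 coding genes it was -0.27 (Pearson's r -0.19). Genes share the same 6 libraries and are not independent, so these are descriptions.

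Control 1, the library with the fewest reads, was the lowest of the 3 controls in 16 of the 22 shorter genes and the highest in 12 of the 24 longer ones. Whether its depth had a part in this was not tested. All coding genes showed the same pattern. There the median deviation of control 1 from a gene's mean over the 6 libraries, in log2 of CPM plus 1, was -0.29 in the 4783 shorter genes and 0.16 in the 9108 longer ones. Within the 46 genes it was -0.11 in the shorter and 0.36 in the longer ones. When each library was first corrected for its dependence on exon length and GC, edgeR called 10 of the 46 lower and 0 higher, beside 2.34% of all genes lower, and these included all 7 with Cenph, Spc24 and Ska3. By length, 8 of the 24 longer genes were then lower, beside 2.66% of all coding genes of that length, and 2 of the 22 shorter genes, beside 1.92%. The medians were then -0.52 in the longer genes, against -0.05 in all coding genes of that length, and -0.29 in the shorter genes, against 0.08. The part of transcript length in the result was measured in this way only.

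**Figure D4:**
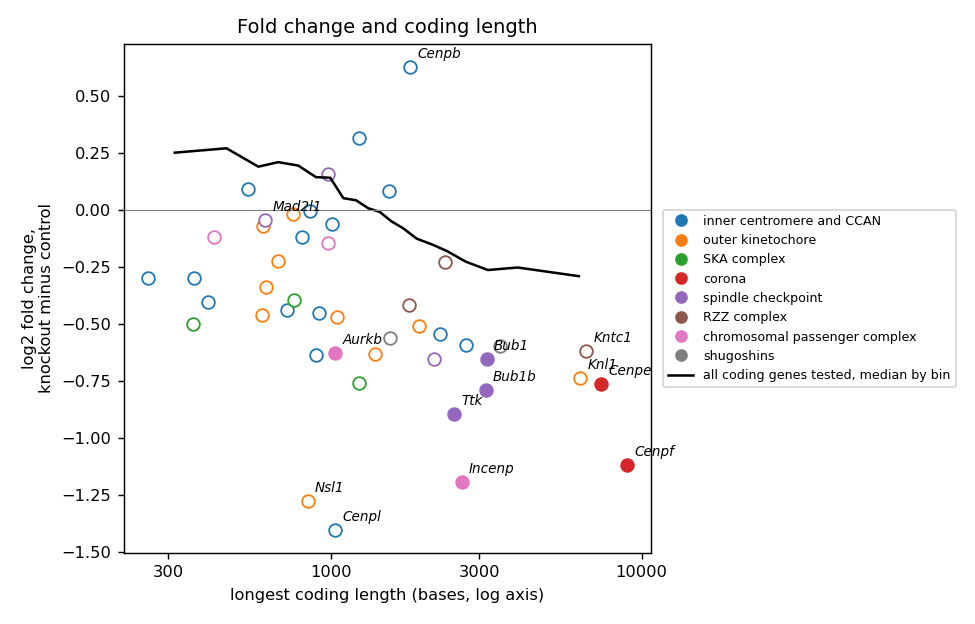
Log2 fold change, knockout over control, against coding length on a log scale for the 46 genes (points; filled where the adjusted p was under 0.05) and the median of all coding genes in bins of length (line). The points fall with length as the line does, and most of them lie below it.

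Other genes of the same machinery, in 3 lists of 27 genes chosen by hand, gave 5 lower and 0 higher genes (edgeR), beside 2.80% of all genes lower and 2.03% higher. Their median log2 fold change was -0.21, with 18 of the 27 below 0 and 9 above, from -1.23 to 1.33 (Dynlt3). Among 9 checkpoint and passenger partners, Espl1, which encodes separase, the protease that cuts cohesin, had a log2 fold change of -1.23 ± 0.24 (SE; adjusted p = 0.0237, edgeR). Spdl1, which encodes the dynein adaptor Spindly, had a log2 fold change of -1.11 ± 0.25 (SE; adjusted p = 0.0383, edgeR), on 7.72 to 11.8 CPM in knockout and 18.7 to 22.6 CPM in control. Among 12 microtubule partners, Ckap5, a microtubule polymerase, had a log2 fold change of -0.83 ± 0.15 (SE; adjusted p = 0.0205, edgeR), and Pafah1b1, which encodes the dynein regulator LIS1, had one of -0.58 ± 0.15 (SE; adjusted p = 0.0496, edgeR). Of these 12, DESeq2 called 3 lower and 1 higher, and limma-voom 4 lower and 1 higher. Over all genes DESeq2 called 847 lower and 794 higher, and limma-voom 1730 lower and 1152 higher.

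Genes of other cell cycle functions were set beside them. Of 20 other G2/M genes, 8 were lower and 0 higher (edgeR, median log2 fold change -0.55), beside 2.80% of all genes lower and 2.03% higher. The 4 with the smallest p were Ect2, Anln, Foxm1 and Top2a, with log2 fold changes of -1.05, -0.92, -1.58 and -1.12. In this list 16 genes were below 0 and 4 above, up to Kif20a at 0.76, with every knockout library above every control. Limma-voom called 14 of the list lower and 1 higher, beside 1730 lower and 1152 higher over all genes. Of 20 G1/S genes, 7 were lower and 0 higher (edgeR, median -0.59), beside the same 2.80% and 2.03% of all genes. In this list too 16 were below 0 and 4 above, up to 0.29. Those with the smallest p were the helicase subunit genes Mcm6, Mcm7, Mcm3 and Mcm4, with log2 fold changes of -0.98, -0.95, -0.97 and -0.95. The summed level of the G2/M list was 67.5% of the control mean in knockout and that of the G1/S list 76.3%, beside 78.1% for the 46 genes. No test of a difference between these lists was made, and a smaller share of dividing cells and less of these RNAs per dividing cell cannot be told apart.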

How the data were processed

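RNA was measured in 6 libraries of THY1+ spermatogonia, 3 Ddx20 knockout and 3 control, reverse transcribed with oligo-dT, amplified by SMART-seq2 and read as pairs of 150 bp, per the labels' protocols. The method carries no molecular identifiers, so amplified copies count as reads and errors cover counting and library spread only. The authors deposited whole-number read counts per Ensembl gene. The deposited table also holds a sum and a mean signal over the libraries, which were not used. Per the submitters' processing notes edgeR, DESeq2, StringTie 2.1.7, STAR 2.7.5c and Trimmomatic 0.39 were used in roles not listed, on the build mm10. Which program counted the reads, with which strand setting and filter, is not given in the sources used here.

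Symbols, positions and lengths came from GENCODE M21 on GRCm38, which matched 22562 of 22579 identifiers. Coding length is that of the longest coding sequence of a gene. Counts were tested with edgeR 4.0.16 in R 4.3.3 (TMM scaling, filterByExpr, robust quasi-likelihood test, genotype as sole term), with Benjamini-Hochberg adjusted p under 0.05 as the threshold over 14766 genes. The standard error was computed as the size of the log2 fold change divided by the square root of its F statistic. The scripts were also tested on simulated counts. Alternatives were DESeq2 1.42.0, limma-voom 3.58.1 with quality weights, other scalings and filters, each library left out, the replicate number as a block, knockout libraries 1 and 2 as 1 library, and removal of the length and GC trend.

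The 46 genes, the other lists and the tests were chosen with earlier results of these data known. Values per library are given for Ddx20, each called gene, and in each role the uncalled genes with the smallest p and with the log2 fold change nearest 0, with others by fold change, range and count. In the other lists, called genes are named, at most 4 per list. A single called gene of these lists is not reported here. Cenpa, Cenpl, Cenpb, Ndc80, Knl1 and Zwilch were given more values after theirs were seen.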

Additional observations from a re-analysis of the deposited data

How the results depend on the processing

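Over 18 alternatives, the 7 called genes had log2 fold changes below 0 in all 126 of 126 fits, and no result reversed. These genes were chosen by their call in the same libraries that each alternative refits, so their sign was largely fixed beforehand. Across genes and alternatives, 739 of 828 values stayed on their side of the threshold, 42 lost it and 47 gained it. All 42 losses fell within the 126 fits of the 7 called genes, since an uncalled gene has no call to lose. Of the 46 genes, edgeR called 7 lower in the main design, 19 with library size alone, 10 with the length and GC trend removed and 0 with knockout libraries 1 and 2 as 1 library, where DESeq2 called 4 and limma-voom 5. DESeq2 called 12 and limma-voom 23 lower, and limma-voom alone called 1 higher, Cenpb. Leaving out 1 library gave 0 to 13 lower and 0 higher. Library size alone moved the median of all genes to -0.26 and that of the 46 to -0.71, so relative to all genes it changed little; leave-one-out medians ran from -0.50 to -0.41. Over all genes, 413 lower and 300 higher became 1152 and 226 with library size alone, 847 and 794 with DESeq2, and 1730 and 1152 with limma-voom. With the close pair as 1 library they became 0 and 1 with edgeR, 259 and 206 with DESeq2 and 249 and 256 with limma-voom, and without 1 library 1 to 468 lower and 2 to 414 higher. The log2 fold change of Ddx20 was -2.05 to -1.61 without 1 library, with an adjusted p of 0.0554 without knockout library 1 and 0.0620 without knockout library 3 (edgeR), and -1.94 (adjusted p = 0.0541) with the close pair as 1. Deviations of same-numbered libraries from their group means correlated at 0.00757, 0.0135 and 0.0277, the last being the highest of all pairings. Those of differently numbered libraries correlated at -0.0352 to 0.0201. With 3 libraries per group these values cannot show whether the replicate numbers pair the libraries. With the replicate block edgeR called 7 of the 46, without Aurkb (adjusted p = 0.0599) and with Cenpl. The causes of these changes were not tested. With 3 libraries per group, counts as low as those of Nsl1 or Mad1l1 limit what can be detected.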
